A study of Mus musculus with 9 samples.

Results

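The noncoding RNAs described here came from a list of 10: AA474408, Rmrp, Rpph1, Neat1, Malat1, Meg3, Rian, Mirg, Snhg11 and Miat. Of these 10, 4 were found by their Ensembl gene IDs among the 14831 genes of the expression table, namely AA474408, Rmrp, Meg3 and Snhg11, and all 4 passed the filter on low values. The other 6 were not analysed here. AA474408 and Rmrp were chosen by their values in these libraries, because both were higher after the C9orf72 oligonucleotide; the other 8 were listed as well-known noncoding RNAs of neural tissue. The differences of AA474408 and Rmrp from the control groups are therefore given as a description, with no test.

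The study used RNA-seq of mouse spinal cord to ask what follows from loss of C9orf72, a gene whose repeat expansion in people can cause motor neuron disease (ALS) and frontotemporal dementia. Adult wild-type female C57Bl/6 mice, 10 weeks old, received 10 µl into the right lateral ventricle, and spinal cord was taken 2 weeks later. Of the 9 libraries, 3 came from mice given 500 µg of the C9orf72 ASO (number 571883), 3 from mice given 500 µg of the control ASO (number 456835) and 3 from mice given saline. The labels give no strain for the third control ASO library. No group carries a mutation, so the design models a lowering of the RNA in adult tissue and not a repeat expansion. An antisense oligonucleotide (ASO) is a short synthetic strand that pairs with its target RNA. Nothing in the labels says that each library is a separate animal, so p-values measure the spread between these libraries only.

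The levels are RPKM (reads scaled to transcript length and to the depth of the library). They can be compared between genes only as far as the genes are recovered alike, which was not tested. Depths recovered from the values of short genes were 90.3 to 123.5 M reads per library. C9orf72 was at 2.68, 3.40 and 3.12 RPKM with the C9orf72 ASO, against 11.2, 11.7 and 10.6 RPKM with the control ASO and 10.5, 11.4 and 11.5 RPKM with saline, which checks the labels. Neuronal and oligodendrocyte markers were present in every library, and the summed level of 3 caudal position genes was 72.6 to 106 RPKM, against 1.52 to 2.19 RPKM for the forebrain gene measured. In bulk tissue fewer cells of a type and less RNA per cell cannot be told apart.

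Noncoding RNAs of this list work as RNA, not as templates for protein. Rmrp is the RNA of RNase MRP, a ribonucleoprotein that cuts ribosomal RNA precursors and is built on the same protein core as RNase P, whose RNA is Rpph1; both RNAs are made by RNA polymerase III. Meg3, Rian and Mirg lie in line in the Dlk1-Dio3 imprinted region, are transcribed from the maternal chromosome, and contain many small nucleolar RNAs and microRNAs. Snhg11 is a brain-enriched transcript that hosts small nucleolar RNAs. No role is given here for AA474408.

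Rmrp is shown because part of it lies opposite a protein-coding gene, on the other strand. The RNA is 271 bases long and was taken from the GENCODE M21 transcripts (GRCm38, chr4:43492788-43493058, minus strand). Capitals mark the 159 bases that lie within the gene Ccdc107 on the opposite strand, of which 124 are exonic in Ccdc107.
Rmrp RNA: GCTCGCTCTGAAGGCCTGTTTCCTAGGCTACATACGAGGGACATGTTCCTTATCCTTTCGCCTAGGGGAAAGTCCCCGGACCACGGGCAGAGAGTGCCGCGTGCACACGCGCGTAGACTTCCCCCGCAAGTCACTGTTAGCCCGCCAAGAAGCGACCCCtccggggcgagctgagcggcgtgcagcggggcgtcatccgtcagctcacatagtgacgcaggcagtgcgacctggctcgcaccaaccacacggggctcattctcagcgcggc
The capitals run from the 5′ end without a break, and the 3′ part of the RNA is free of Ccdc107.

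AA474408 is annotated on the minus strand of chromosome 7 with 3339 exonic bases, in a class kept for entries that await experimental evidence. Its 5′ end faces that of Zfp143, a gene on the opposite strand that encodes a zinc finger activator of promoters used by RNA polymerases II and III. The annotated exons overlap at their 5′ ends in GENCODE M21, while the RefSeq start of Zfp143 lies 377 bases upstream of the 5′ end of AA474408. The sequence upstream of AA474408 is shown because it holds the RefSeq start of Zfp143. It is the RefSeq promoter window of 300 bases, 250 before and 50 after that start (GRCm38.p6, chr7:110061452-110061751, plus strand), whose first base lies 127 bases upstream of AA474408.
Zfp143 promoter: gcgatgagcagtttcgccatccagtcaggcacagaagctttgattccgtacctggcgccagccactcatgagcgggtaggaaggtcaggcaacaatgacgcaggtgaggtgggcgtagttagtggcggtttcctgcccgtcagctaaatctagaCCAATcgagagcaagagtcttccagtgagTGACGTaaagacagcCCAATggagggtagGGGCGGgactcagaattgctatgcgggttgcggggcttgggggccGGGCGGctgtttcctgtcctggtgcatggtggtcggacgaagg
Capitals mark 3 short motifs that were searched on both strands and do not overlap here. CCAAT (the CCAAT box) occurred 2 times and is held by 37.4% of the 32817 RefSeq promoter windows of this length, GGGCGG (the GC box) occurred 2 times and is held by 35.6%, and TGACGT (part of the cyclic AMP response element) occurred 1 time and is held by 7.5%. A match is a description of letters and not evidence of binding.

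The other entries inside Meg3 are 2 microRNA hairpins, Mir1906-1 and Mir770, and the highest entry inside Rian is Mir1188. Both hairpins inside Meg3 lie fully in its GENCODE M21 exons, so their reads cannot be told from those of Meg3. The mature sequences of Mir1906-1, Mir770 and Mir1188 (RefSeq, GRCm38.p6) are shown because these 3 hairpins had the highest levels of the entries downstream of the Meg3 start. The level of a hairpin entry is not a measure of the mature microRNA. Capitals mark the seed, bases 2 to 8.
mmu-miR-1906: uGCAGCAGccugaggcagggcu
mmu-miR-770-5p: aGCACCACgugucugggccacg
mmu-miR-770-3p: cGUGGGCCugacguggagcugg
mmu-miR-1188-5p: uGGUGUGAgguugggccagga
mmu-miR-1188-3p: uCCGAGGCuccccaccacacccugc
No seed is shared between these 5 mature microRNAs.

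Snhg11 and Meg3 had some of the highest values of the cord, and those of Rmrp and AA474408 were low. Rmrp is short, and how fully short RNAs were recovered was not tested, so its low value does not show that it is scarce. Snhg11 averaged 878 RPKM over the 9 libraries (rank 14 of 14430 genes tested) and Meg3 596 RPKM (rank 27), and the ranges of the 9 libraries did not overlap, at 801 to 945 RPKM for Snhg11 and 513 to 679 RPKM for Meg3. Meg3 was the highest of the 390 entries annotated as long noncoding. Rmrp averaged 3.28 RPKM and AA474408 3.14 RPKM, with overlapping ranges of 1.68 to 5.20 RPKM and 1.48 to 7.57 RPKM, so their order is not resolved. About 26.7% of tested genes lay below Rmrp and 25.8% below AA474408. The coefficient of variation over the 9 libraries was 6.8% for Snhg11 and 8.6% for Meg3, against 39.3% for Rmrp and 70.6% for AA474408.

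AA474408 was at 4.73, 7.57 and 5.44 RPKM with the C9orf72 ASO, against 2.12, 1.48 and 1.48 RPKM with the control ASO and 1.92, 1.75 and 1.75 RPKM with saline. Every C9orf72 ASO library was above every library of the other groups, and the second was the highest of the 9. The group means were 5.91 ± 1.48 RPKM with the C9orf72 ASO, 1.69 ± 0.37 RPKM with the control ASO and 1.81 ± 0.10 RPKM with saline (SD, n = 3 each). The C9orf72 ASO mean was 3.49 times that of the control ASO group and 3.27 times that of the saline group. On the log2(RPKM + 0.1) scale the differences were 1.74 (SE 0.17) from the control ASO and 1.63 (SE 0.17) from saline. Of 14430 genes, 14 had a higher log2 fold change against the control ASO and 10 against saline. AA474408 was chosen for its rise in these contrasts, so its rank in them is set by that choice and is no finding. At the recovered depths, AA474408 had 1774 to 2727 reads with the C9orf72 ASO, 448 to 839 reads with the control ASO and 620 to 723 reads with saline, and counting error was at most 4.7% of a value.

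Rmrp was at 5.20, 5.15 and 4.26 RPKM with the C9orf72 ASO, against 2.36, 1.68 and 2.94 RPKM with the control ASO and 2.37, 2.36 and 3.24 RPKM with saline. The lowest C9orf72 ASO library was above the highest library of either other group. The means were 4.87 ± 0.53 RPKM with the C9orf72 ASO, 2.33 ± 0.63 RPKM with the control ASO and 2.66 ± 0.51 RPKM with saline (SD, n = 3 each), a ratio of 2.09 to the control ASO and 1.83 to saline. The log2 differences were 1.06 (SE 0.18) from the control ASO and 0.86 (SE 0.18) from saline. Because the RNA is short, these values rest on few reads: 142 to 158 with the C9orf72 ASO, 48 to 76 with the control ASO and at least 68 with saline. Counting error alone is 8.0% to 14.5% of a single value.

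**Figure D1:**
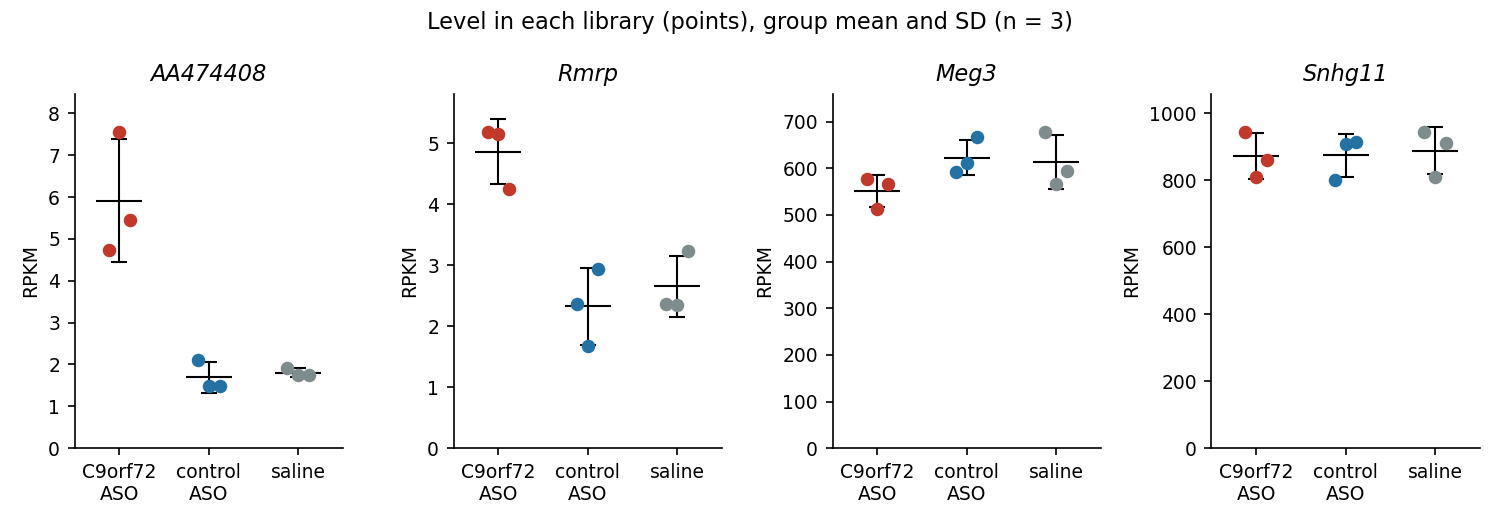
RPKM of AA474408, Rmrp, Meg3 and Snhg11 (vertical axes from 0) in each library of the C9orf72 ASO, control ASO and saline groups; points are libraries, and bars are the group mean and SD (n = 3). AA474408 and Rmrp stand above both other groups in all 3 C9orf72 ASO libraries, with means of 5.91 and 4.87 RPKM, while the ranges of Snhg11 overlap between all groups.

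Genes were called at a Benjamini-Hochberg adjusted p under 0.05 with limma over 14430 genes. Against the control ASO 10 genes were called (0.0693%), 5 higher and 5 lower, and AA474408 was the only member among them. Against saline 10 genes were called (0.0693%), again 5 higher and 5 lower and again with AA474408 as the only member. Against the mean of both control groups 25 genes were called (0.173%), and AA474408 and Rmrp were the members among the 11 that were higher (0.0762%). Nothing is read from these member counts, since the same contrasts chose both RNAs. Libraries that do not overlap are a weak criterion here: 10.1% of tested genes were higher in all 3 C9orf72 ASO libraries than in all 3 control ASO libraries, 5.61% were higher in all 3 than in all 3 saline libraries, and 2.82% than in all 6 other libraries, as AA474408 and Rmrp were.

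The control ASO against saline was not the contrast of the choice, and no member was called in it, where limma called 1 of 14430 genes (0.00693%). The choice of AA474408 and Rmrp did draw on the values of these libraries, so for both RNAs the contrast is no independent test. No member was at an unadjusted p under 0.05, against 5.35% of all tested genes. AA474408 differed by -0.11 (SE 0.17, limma adjusted p = 0.887) and Rmrp by -0.20 (SE 0.18, limma adjusted p = 0.816) on the log2 scale. Meg3 differed by 0.03 (SE 0.08, limma adjusted p = 0.95) and Snhg11 by -0.02 (SE 0.09, limma adjusted p = 0.961). The libraries of both groups overlapped for all 4 RNAs, while they did not overlap for 10.3% of tested genes. The sign of the Rmrp difference is not fixed: it was 0.02 when a trend with transcript length was removed.

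Meg3, a maternally expressed RNA of neurons and endocrine cells, was at 576, 513 and 566 RPKM with the C9orf72 ASO, against 592, 611 and 666 RPKM with the control ASO and 679, 566 and 595 RPKM with saline. All 3 C9orf72 ASO libraries were below all 3 control ASO libraries, as were those of 11.8% of tested genes, and they overlapped with saline. The means were 552 ± 34.1 RPKM with the C9orf72 ASO, 623 ± 38.4 RPKM with the control ASO and 613 ± 58.7 RPKM with saline (SD, n = 3 each). The log2 difference did not pass the test against the control ASO (-0.18, SE 0.08, limma adjusted p = 0.377) or against saline (-0.15, SE 0.08, limma adjusted p = 0.45).

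Snhg11 was at 945, 809 and 860 RPKM with the C9orf72 ASO, against 801, 909 and 915 RPKM with the control ASO and 945, 809 and 910 RPKM with saline. No group stood apart, and each spanned most of the range of the other groups. The means were 871 ± 68.5 RPKM, 875 ± 64.2 RPKM and 888 ± 70.7 RPKM in the C9orf72 ASO, control ASO and saline groups (SD, n = 3 each). The log2 differences were -0.01 (SE 0.09, limma adjusted p = 0.983) from the control ASO and -0.03 (SE 0.09, limma adjusted p = 0.917) from saline, and their sign changed with the scaling. GENCODE M21 classes this Snhg11 entry as protein coding.

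**Figure D2:**
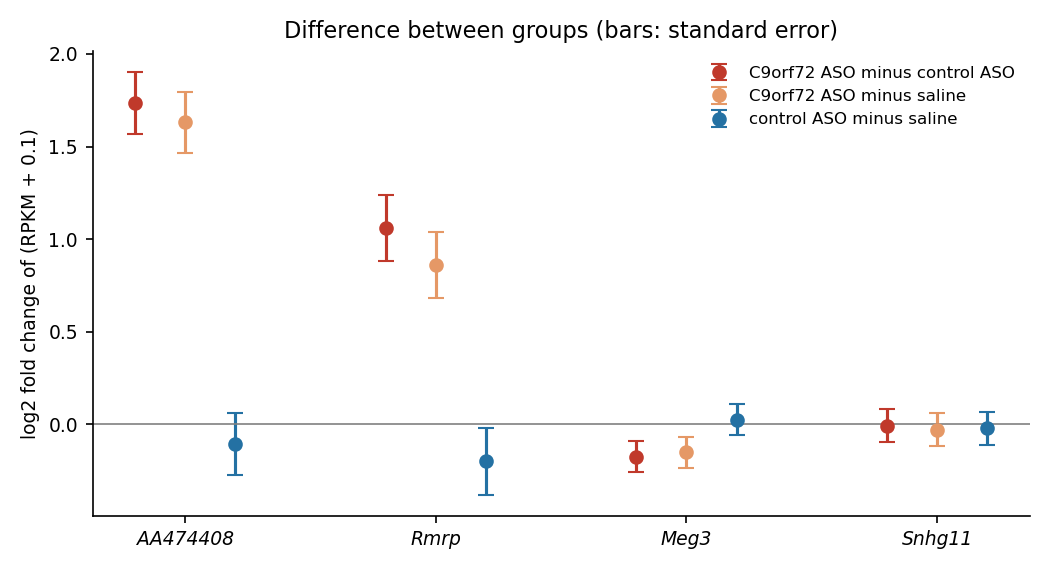
Log2 fold change of RPKM + 0.1 (vertical axis) for the 4 RNAs in 3 contrasts, with bars of 1 standard error from the limma fit of 9 libraries. AA474408 (1.74 and 1.63) and Rmrp (1.06 and 0.86) lie above 0 in both C9orf72 ASO contrasts, which chose them, and the control ASO minus saline values of all 4 RNAs lie between -0.20 and 0.03.

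A protein-coding gene that overlaps each low RNA was measured on its own row. The strand setting of the read counting is not given in the sources used here, so reads of an overlap cannot be assigned to one strand. AA474408 also lies within 1600010M07Rik, a gene of the antisense class on the same strand. That gene spans all 3339 bases of AA474408, shares 0 exonic bases with it and was not analysed here. The part of its reads in the AA474408 values was not tested. Zfp143 was at 4.42, 3.98 and 3.79 RPKM with the C9orf72 ASO, against 3.66, 4.17 and 3.87 RPKM with the control ASO and 4.32, 4.02 and 3.95 RPKM with saline. Its groups overlapped, with log2 differences of 0.06 (SE 0.08, limma adjusted p = 0.76) from the control ASO and -0.01 (SE 0.08, limma adjusted p = 0.964) from saline. Ipo7, which encodes a nuclear import receptor and lies 1377 bases from AA474408 on the opposite strand, differed by -0.08 (SE 0.10, limma adjusted p = 0.74) from the control ASO and by 0.14 (SE 0.10, limma adjusted p = 0.535) from saline.

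Ccdc107, whose product is a coiled-coil protein, was at 7.82, 6.88 and 7.50 RPKM with the C9orf72 ASO, against 6.09, 5.57 and 5.80 RPKM with the control ASO and 8.17, 5.99 and 7.89 RPKM with saline. Its C9orf72 ASO libraries were above those of the control ASO, as for 10.1% of tested genes, and overlapped with saline. The log2 difference was 0.34 (SE 0.11, limma adjusted p = 0.248) from the control ASO and 0.02 (SE 0.11, limma adjusted p = 0.955) from saline. The part of Ccdc107 reads in the Rmrp values was not tested. A further Rmrp entry on the same strand, annotated as a lincRNA of 281 bases, was not analysed here.

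**Figure D3:**
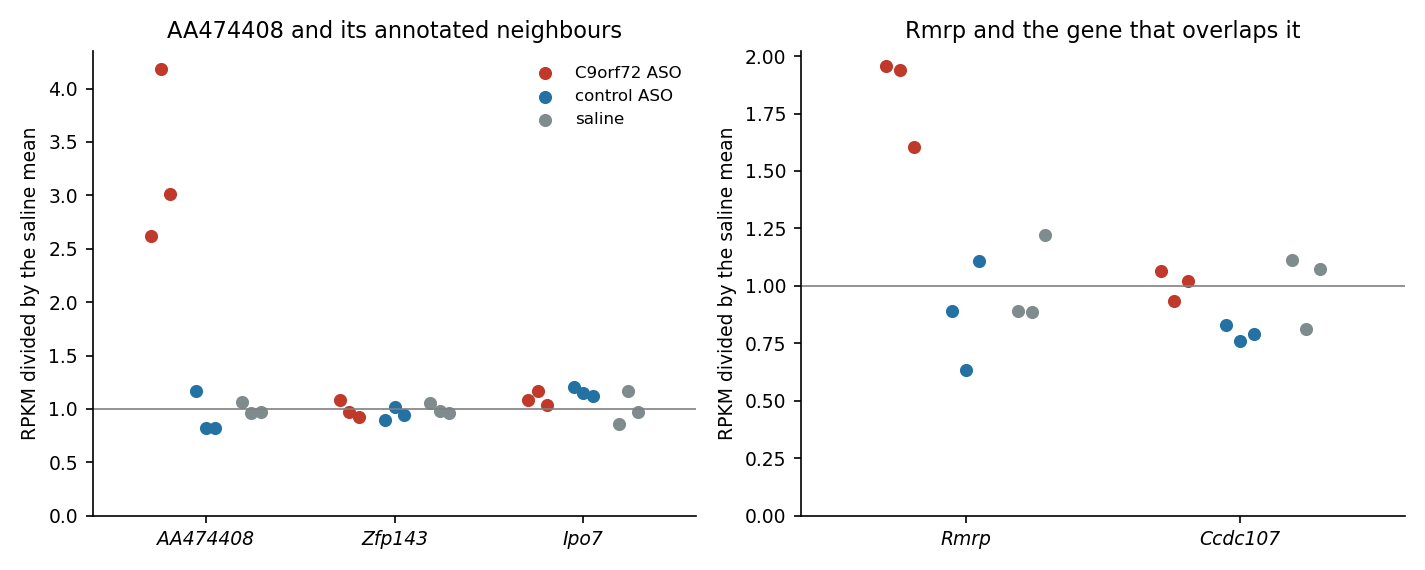
RPKM of each library divided by the mean of the 3 saline libraries (vertical axes from 0) for AA474408 with Zfp143 and Ipo7, left, and for Rmrp with Ccdc107, right; points are libraries. The C9orf72 ASO points of AA474408 and Rmrp stand apart from all others, with ratios of means to saline of 3.27 and 1.83, while those of Zfp143, Ipo7 and Ccdc107 overlap with saline.

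Rmrp was set beside other short RNAs, since recovery of short RNAs can differ between libraries. Levels were summed over entries of up to 350 bases annotated as microRNA, snoRNA, scaRNA, snRNA, misc_RNA or ribozyme, Rmrp included. The sums were 549, 460 and 439 RPKM with the C9orf72 ASO, against 512, 454 and 467 RPKM with the control ASO and 642, 532 and 613 RPKM with saline. A large part came from Mir1906-1 and Mir770, which lie in Meg3 exons, so the sums may hold reads of Meg3. These 2 hairpins gave 85.2 to 99.8 RPKM with the C9orf72 ASO, 88.4 to 122 RPKM with the control ASO and 117.5 to 147 RPKM with saline. Mir1906-2, a near-identical copy of Mir1906-1, averaged 71.2, 81.5 and 96.9 RPKM in these groups. A wider set, the 126 tested genes of any class with up to 350 bases, had a median log2 difference of 0.00 from the control ASO and -0.24 from saline in the C9orf72 ASO group. Its median was -0.28 for the control ASO minus saline. The sums of the C9orf72 ASO libraries overlapped with those of the control ASO and, in the highest library, with those of saline. The part of short RNA recovery in the Rmrp values was not tested. Of 54 snoRNAs and scaRNAs tested, limma called none in any contrast, with 7 at an unadjusted p under 0.05 against the control ASO (14.1% of all genes), 10 against saline (14.0%) and 12 for the control ASO minus saline (5.35%). Their libraries did not overlap for 4 that were higher (10.1% of all genes) and 1 that was lower (11.8%) than with the control ASO, and for 2 that were higher (5.61%) and 5 that were lower (12.4%) than with saline.

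Genes that work with Rmrp were described from lists. Of 12 RNase P and RNase MRP proteins, 11 were tested and limma called none against either control group; 3 were at an unadjusted p under 0.05 against the control ASO and 0 against saline. Over all genes tested, 14.1% were at an unadjusted p under 0.05 against the control ASO and 14.0% against saline. Their median log2 difference was 0.17 from the control ASO and 0.02 from saline, beside -0.01 and -0.03 over all tested genes. Where a sentence gives a pair of adjusted p-values or medians, the first is against the control ASO and the second against saline. Pop4, a subunit of both enzymes, was at 21.9, 20.2 and 19.5 RPKM with the C9orf72 ASO, against 17.8, 19.2 and 17.1 RPKM with the control ASO and 19.9, 17.6 and 18.7 RPKM with saline (limma adjusted p = 0.29 and 0.427). Rpp38, another shared subunit, was at 4.67, 4.64 and 4.28 RPKM with the C9orf72 ASO, against 4.12, 3.69 and 3.39 RPKM with the control ASO and 4.92, 3.58 and 4.58 RPKM with saline. Its saline libraries span those of the C9orf72 ASO (limma adjusted p = 0.312 and 0.837).

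Of 32 genes of RNA polymerase III transcription, which makes Rmrp, 31 were tested. limma called none against the control ASO (2 at an unadjusted p under 0.05, beside 14.1% of all genes) or saline (4, beside 14.0%), with medians of 0.03 and -0.01. Pou2f1, the octamer-binding factor OCT1, was at 14.1, 14.1 and 12.9 RPKM with the C9orf72 ASO, against 16.3, 16.5 and 16.8 RPKM with the control ASO and 15.6, 17.4 and 14.5 RPKM with saline (limma adjusted p = 0.234 and 0.249). Its C9orf72 ASO libraries were the 3 lowest of the 9, as were those of 5.05% of tested genes. Larp7, which binds the 7SK RNA, was at 11.6, 11.3 and 11.8 RPKM with the C9orf72 ASO, against 10.8, 9.75 and 10.5 RPKM with the control ASO and 11.4, 10.2 and 10.7 RPKM with saline (limma adjusted p = 0.304 and 0.488).

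RNase MRP serves ribosomal RNA processing. Of 36 genes of ribosomal RNA synthesis and processing, 35 were tested and limma called none against the control ASO (4 at an unadjusted p under 0.05, beside 14.1% of all genes) or saline (3, beside 14.0%), with medians of 0.03 and 0.04. Nop10, a protein of the H/ACA class of small nucleolar particles, was at 32.4, 31.6 and 32.1 RPKM with the C9orf72 ASO, against 26.8, 28.3 and 25.5 RPKM with the control ASO and 31.5, 24.8 and 31.7 RPKM with saline. Its C9orf72 ASO libraries were above those of the control ASO, as for 10.1% of tested genes. The lowest C9orf72 ASO library was below the highest saline library (limma adjusted p = 0.267 and 0.506). Nop56, a core protein of the C/D class, differed by 0.19 (SE 0.07, limma adjusted p = 0.302) from the control ASO and by 0.03 (SE 0.07, limma adjusted p = 0.892) from saline.

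Other small structural RNAs were mostly near the lower limit of the table, where each value under 0.5 RPKM stands at 0.1. Of 37 listed, 10 were in the table and 8 were tested; limma called none against the control ASO (3 at an unadjusted p under 0.05, beside 14.1% of all genes) or saline (3, beside 14.0%), with medians of 0.33 and -0.29. Scarna13, a guide RNA of Cajal bodies, was at 0.85, 0.82 and 0.81 RPKM with the C9orf72 ASO, against 0.65, 0.1 and 0.1 RPKM with the control ASO and 1.34, 0.76 and 0.54 RPKM with saline. Vaultrc5, the RNA of the vault particle, was at 0.75, 1.04 and 1.03 RPKM with the C9orf72 ASO, against 0.1, 0.94 and 0.1 RPKM with the control ASO and 0.1, 0.1 and 0.63 RPKM with saline. Fold changes of these 2 RNAs turn on the limit, and limma adjusted p was 0.247 and 1 for Scarna13 and 0.326 and 0.28 for Vaultrc5. Scarna2, which was chosen after the values were seen as an abundant RNA of the list, was at 55.8, 60.6 and 79.5 RPKM with the C9orf72 ASO, against 54.0, 53.4 and 68.8 RPKM with the control ASO and 55.1, 39.4 and 48.6 RPKM with saline (limma adjusted p = 0.678 and 0.247).

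The table held 390 entries of long noncoding classes, of which 362 were tested, with median log2 differences of 0.03 and 0.02. AA474408 apart, which was chosen on these contrasts, limma called none of them, with 43 at an unadjusted p under 0.05 against the control ASO (14.1% of all genes) and 33 against saline (14.0%). Of 40 other named long noncoding RNAs, 11 were in the table and tested, and limma called none (3 at an unadjusted p under 0.05 against the control ASO, beside 14.1% of all genes, and 1 against saline, beside 14.0%); their medians were 0.08 and 0.05. Trp53cor1, a p53-induced RNA, was at 0.51, 0.55 and 0.60 RPKM with the C9orf72 ASO, against 0.1 RPKM in all 3 control ASO libraries and 0.52, 0.66 and 0.1 RPKM with saline (limma adjusted p = 0.243 and 0.678), again at the limit of the table. Pantr1, a neural RNA beside Pou3f3, was at 16.6, 17.2 and 21.3 RPKM with the C9orf72 ASO, against 12.4, 17.3 and 13.4 RPKM with the control ASO and 14.2, 14.7 and 18.0 RPKM with saline, with overlap and limma adjusted p = 0.287 and 0.459.

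Genes related to the remaining RNAs also gave no calls. Of 27 snoRNA host genes, 17 were tested, with 2 at an unadjusted p under 0.05 against the control ASO (14.1% of all genes) and 2 against saline (14.0%), none called by limma, and medians of 0.08 and 0.03. All 13 paraspeckle proteins, partners of Neat1, were tested, with 1 at an unadjusted p under 0.05 against the control ASO (14.1% of all genes) and 0 against saline (14.0%), none called by limma, and medians of -0.06 and -0.02. Sfpq, an RNA-binding protein that paraspeckles need, was at 64.4, 65.3 and 64.9 RPKM with the C9orf72 ASO, against 69.6, 77.2 and 78.9 RPKM with the control ASO and 71.1, 68.4 and 70.6 RPKM with saline. The C9orf72 ASO libraries were the 3 lowest of the 9, as were those of 5.05% of tested genes. The difference did not pass the test (limma adjusted p = 0.239 and 0.437). Dazap1, another RNA-binding protein, differed by -0.22 (SE 0.11, limma adjusted p = 0.384) from the control ASO and by -0.23 (SE 0.11, limma adjusted p = 0.371) from saline.

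In the Dlk1-Dio3 region 5 of 8 listed genes were tested, all 5 had log2 differences below 0 against each control group, and limma called none (1 at an unadjusted p under 0.05 against the control ASO, beside 14.1% of all genes, and 1 against saline, beside 14.0%). Their medians were -0.18 and -0.13. Dlk1, a paternally expressed membrane protein that inhibits differentiation, was at 12.2, 14.7 and 11.8 RPKM with the C9orf72 ASO, against 16.0, 16.4 and 16.9 RPKM with the control ASO and 15.5, 17.4 and 16.5 RPKM with saline. Its C9orf72 ASO libraries were the 3 lowest of the 9, as were those of 5.05% of tested genes. The log2 differences were -0.35 (SE 0.08, limma adjusted p = 0.19) and -0.36 (SE 0.08, limma adjusted p = 0.135).

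The table also held 36 short entries downstream of the Meg3 start, 35 of them microRNA hairpins and 1 a snoRNA: 2 inside Meg3, 3 inside Rian, 11 inside Mirg and 20 between these hosts. A hairpin entry cannot separate reads of the host RNA from those of the precursor. Mir1906-1, 3540 bases from the Meg3 start, was at 80.7, 69.2 and 81.2 RPKM with the C9orf72 ASO, against 99.8, 68.4 and 96.8 RPKM with the control ASO and 111, 98.3 and 109.1 RPKM with saline. It overlapped with the control ASO (limma adjusted p = 0.527). It lay below saline in all 3 C9orf72 ASO libraries, as did 12.4% of tested genes (limma adjusted p = 0.207). The value is uncertain because Mir1906-2 on the X chromosome is a near-identical copy, with 71.7, 65.2 and 76.7 RPKM with the C9orf72 ASO, 91.8, 64.5 and 88.2 RPKM with the control ASO and 99.96, 90.2 and 100.5 RPKM with saline.

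Levels were lower further along the region. Mir770, at the far end of Meg3, was at 18.7, 16.0 and 18.6 RPKM with the C9orf72 ASO, against 22.2, 19.9 and 17.1 RPKM with the control ASO and 35.7, 19.2 and 25.1 RPKM with saline. Mir1188 inside Rian was at 10.8, 8.40 and 6.05 RPKM with the C9orf72 ASO, against 7.90, 6.87 and 7.64 RPKM with the control ASO and 15.2, 10.1 and 8.04 RPKM with saline. Both entries overlapped between the C9orf72 ASO and the control ASO. Every C9orf72 ASO library was below every saline library for Mir770, as for 12.4% of tested genes, while Mir1188 overlapped with saline. The limma adjusted p was 0.739 and 0.25 for Mir770 and 0.814 and 0.481 for Mir1188, against the control ASO and saline in that order. No entry inside Mirg was above the 0.1 limit in all 9 libraries, and the highest value there was 2.39 RPKM.

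Of the 36 short entries 20 were tested, and limma called none in any contrast. After the C9orf72 ASO their median log2 difference was -0.14 from the control ASO (1 at an unadjusted p under 0.05, beside 14.1% of all genes) and -0.71 from saline (7, beside 14.0%). It was -0.43 for the control ASO minus saline (8, beside 5.35%). Of the 20 entries, 12 were below 0 for the C9orf72 ASO minus the control ASO and 16 for the C9orf72 ASO minus saline. For the control ASO minus saline, 16 of the 20 entries were below 0, and the median of the 126 short genes was -0.28, beside -0.02 over all tested genes. Many of these values stand at the 0.1 limit, so the size of their fold changes is uncertain.

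**Figure D4:**
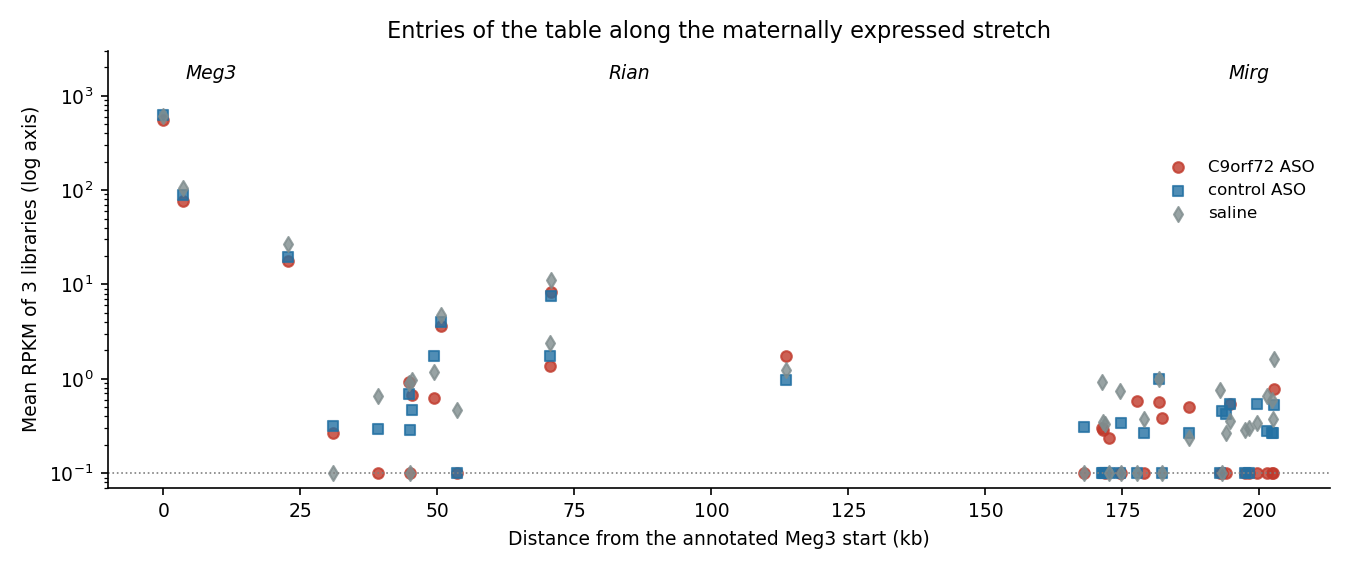
Mean RPKM of 3 libraries per group (log axis, with values under 0.5 RPKM entered as 0.1; dotted line at 0.1) for Meg3 and the 36 short entries, by distance in kb from the annotated Meg3 start. Levels are above 500 RPKM for Meg3 itself, 77.0 to 106 RPKM for Mir1906-1, and no entry inside Mirg is above 2.39 RPKM in any library.

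The genes whose pattern over the 9 libraries was most like that of each RNA were found by Pearson's r of log2(RPKM + 0.1), given as a description since all points share libraries and depth. For AA474408, which was itself chosen for this pattern, these were Pomc (r = 0.974), the precursor of melanocortins and endorphin, 1700027A07Rik (0.952), Emc2 (0.95), Meig1 (0.942) and Dnajc15 (0.939). Pomc and 1700027A07Rik stood at the 0.1 limit in all 6 control libraries and passed the filter only through the C9orf72 ASO group, so their r is set by the choice of AA474408 and is no finding. Pomc was at 0.51, 0.59 and 0.53 RPKM with the C9orf72 ASO. Emc2, a subunit of the membrane protein insertion complex, was at 46.9, 49.2 and 46.1 RPKM with the C9orf72 ASO, against 42.9, 43.0 and 42.4 RPKM with the control ASO and 43.9, 41.5 and 43.0 RPKM with saline. These genes share with AA474408 higher values in the C9orf72 ASO libraries. The r of deviations from group means was 0.76 for Pomc, -0.50 for 1700027A07Rik, 0.63 for Emc2, 0.19 for Meig1 and 0.72 for Dnajc15. For Pomc and 1700027A07Rik it rests on the C9orf72 ASO libraries alone.

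For Rmrp, which was also chosen for higher values with the C9orf72 ASO, the nearest were Meig1 (r = 0.949), Dram2 (0.933), Lars2 (0.932), Adgre1 (0.909) and Xkrx (0.897). That choice favours genes that are higher in the same libraries, so these r are no finding. Lars2, the mitochondrial leucyl-tRNA synthetase gene, was at 3453, 2910 and 1815 RPKM with the C9orf72 ASO, against 819, 808 and 994 RPKM with the control ASO and 1186, 1032 and 1299 RPKM with saline. Adgre1, which encodes the macrophage surface protein F4/80, was at 1.69, 1.42 and 1.13 RPKM with the C9orf72 ASO, against 0.87, 0.76 and 0.85 RPKM with the control ASO and 0.70, 0.82 and 0.89 RPKM with saline. Within groups the r of deviations was 0.62 for both. For Meg3 the nearest were Commd7 (r = 0.948) and Sh3bp5 (0.932), and for Snhg11 an unnamed gene, ENSMUSG00000091456 (0.966), and Sec61a2 (0.956).

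Among the 4 RNAs, AA474408 and Rmrp had r = 0.86 over the 9 libraries and 0.07 once group means were taken off, and the value between groups is set by their choice. Meg3 and Snhg11 had r = 0.65 over the 9 libraries and 0.81 within groups. AA474408 and Snhg11 had r = -0.26, and -0.69 within groups. All of these are descriptions over 9 points.

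The summed levels of some cell type markers differed between groups, and the sums are given as a description. The summed level of 4 of 5 listed microglial markers was 47.4 to 53.7 RPKM with the C9orf72 ASO, 44.4 to 46.0 RPKM with the control ASO and 43.3 to 46.7 RPKM with saline. The 3 endothelial markers summed to 8.46 to 10.2 RPKM with the C9orf72 ASO, 8.66 to 13.1 RPKM with the control ASO and 13.1 to 18.4 RPKM with saline. The 3 neutrophil markers all stood at the 0.1 limit with the C9orf72 ASO and with saline, and summed to 2.16 to 6.95 RPKM with the control ASO. The 4 neuronal markers summed to 1689 to 1983 RPKM with the C9orf72 ASO, 1862 to 2131 RPKM with the control ASO and 1832 to 1937 RPKM with saline. The 5 red blood cell markers present summed to 750 to 1264 RPKM with the C9orf72 ASO, 724 to 2921 RPKM with the control ASO and 852 to 935 RPKM with saline. No microglial, endothelial, neuronal or red blood cell marker was called by limma in any contrast. Of 2 neutrophil markers tested, 1 was called lower than with the control ASO, and both passed the filter only through that group. The part of these cell types in the levels of the 4 RNAs was not tested.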

How the data were processed

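The 9 spinal cord libraries were grouped by their labels, 3 a group. They were made from Trizol-extracted total RNA as strand-specific libraries, per the labels. Trimming used cutadapt 1.2.1 and alignment used GSNAP against mm9, according to the submitters' processing notes. How reads were counted per gene, with what strand setting and annotation, is not given in the sources used here. As unit, RPKM computed by the authors was inferred, because the deposited table does not name it: for short genes, value times length fell on whole multiples of a step in each library (63.1% to 80.0% of values within 0.1 of a whole read). Any value below 0.5 RPKM is entered as 0.1.

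Symbols were matched for 14321 gene IDs of 14831. Lengths, hosts and neighbours came from GENCODE M21 on GRCm38, another build than the files', so measured features are given no mm9 positions. The filter asked for 0.5 RPKM or more in 3 libraries or more and left 14430 genes. These were tested on log2(RPKM + 0.1) with limma 3.58.1 (mean trend, robust estimation, statmod 1.5.0, R 4.3.3) in 1 fit of all groups. P-values were adjusted by Benjamini-Hochberg over all genes tested, with a threshold of 0.05. The procedure was tested on simulated data. Values of different libraries of a group correlated at 0.9851 to 0.99. Counting errors cover counting only.

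The members and lists were chosen with earlier results of these data known. The text names the members, C9orf72, the 5 genes (for AA474408 and Rmrp) or 2 genes (for Meg3 and Snhg11) of highest r, and of each list the genes called or else the 2 with the smallest p against the control ASO. A result that this rule names is not reported here. Neighbours and the short entries of the Meg3 region were added. Alternatives changed the filter, pseudocount, scaling, the fit and the libraries used.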

Additional observations from a re-analysis of the deposited data

How the results depend on the processing

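The log2 fold changes of AA474408 ran over all alternatives from 1.35 to 1.90 against the control ASO, 1.28 to 1.77 against saline and -0.27 to -0.02 for the control ASO minus saline. Rmrp was at 0.83 to 1.24 against the control ASO, 0.69 to 1.01 against saline and -0.38 to 0.02 for the control ASO minus saline. Meg3 was at -0.21 to -0.09 against the control ASO and -0.21 to -0.07 against saline, never past the threshold.

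Genes past the threshold against the control ASO numbered 16 with no filter and 19 without trend and robust estimation, against 10, and 7 to 27 with 1 library left out (27 without the third C9orf72 ASO library). Against saline they numbered 4 with only the groups compared and 25 with a length trend removed, against 10, and 4 to 54 with 1 library left out (54 without the third C9orf72 ASO library, 16 without the third control ASO library, 4 without the first or second C9orf72 ASO library or the second saline library). Against both control groups they numbered 39 with a filter of 1 RPKM, against 25, and 7 to 139 with 1 library left out (7 without the first and 139 without the third C9orf72 ASO library, 13 without the first control ASO library, 9 without the second saline library). For the control ASO minus saline they numbered 5 with no filter, 9 without trend and robust estimation and 2 with the length trend removed, against 1, and 0 to 2 with 1 library left out (0 without any 1 of the control ASO libraries, 2 without the first saline library). limma gave 356 to 916 genes at an unadjusted p under 0.05 in the 3 fits with none called. The causes were not tested.

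Members past the threshold against the control ASO numbered 1 to 2 with 1 library left out (2 without the third control ASO library). Against both control groups they fell to 1, against 2, without trend and robust estimation and with the length trend removed, and were 1 to 2 with 1 library left out (1 without the first or second C9orf72 ASO library, the first control ASO library or the first or second saline library). Rmrp is the member lost or gained each time. Nothing is read from these member counts either, since the same contrasts chose AA474408 and Rmrp.

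Directions near 0 turned. With median log ratio scaling Snhg11 was at 0.003 against the control ASO, 0.004 against saline, 0.004 against both and 0.001 for the control ASO minus saline. With the length trend removed it was at 0.054, 0.025 and 0.04 against the control ASO, saline and both, and for the control ASO minus saline Rmrp was at 0.017 and Meg3 at -0.015. With 1 library left out Snhg11 was at -0.069 to 0.045 against the control ASO, -0.094 to 0.024 against saline, -0.077 to 0.034 against both and -0.087 to 0.041 for the control ASO minus saline, where Rmrp was at -0.379 to 0.006 and Meg3 at -0.031 to 0.101.

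No paired analysis was possible because the labels give no replicate numbers. Few reads of Rmrp (48 in the lowest library) and the replacement of values under 0.5 RPKM limit the precision of small differences.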
